A study of Mus musculus with 6 samples.

Results

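The genes described here encode nucleolar proteins that make ribosomes, followed through kidneys of embryonic mice. They were taken by name, as every gene of the deposited table whose symbol opens with Utp, Nop, Nol or Rrp and a number, together with the RNA polymerase I subunits Polr1a to Polr1e and Nip7, Fbl, Ncl, Npm1, Dkc1, Bop1, Pes1, Wdr12, Imp3 and Imp4. This rule found 46 of the 11578 genes in the table. By assigned role, 22 were grouped under small subunit processing, 12 under large subunit assembly and 5 under RNA polymerase I. A further 5 were grouped as the core of small nucleolar ribonucleoproteins (snoRNPs), and the remaining 2 are nucleolin (Ncl) and nucleophosmin (Npm1). The roles were assigned to each gene and were not tested in these data. Of 51 coding symbols in the GENCODE annotation that match the rule, 3 stand in the table under an older symbol and are given apart, and Nol3 and Nol4 were not analysed here.

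Ribosome production begins in the nucleolus, where RNA polymerase I transcribes the precursor of the large ribosomal RNAs. Small nucleolar RNAs, carried in snoRNPs, guide methylation and pseudouridylation of this precursor, and the U3 snoRNP nucleates the small subunit processome in which the small subunit takes shape. Large subunit precursors mature in parallel with the help of factors such as the PeBoW complex of Pes1, Bop1 and Wdr12. Output of the pathway is high in growing and dividing cells, such as the progenitors of a developing kidney.

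Polyadenylated RNA was measured in whole kidneys of 3 SRM deletion mutants (libraries 328, 336 and 342) and 3 wild types (libraries 330, 331 and 337). Sall1 is a zinc finger transcription factor of kidney progenitors, and the SRM is the short motif with which it recruits NuRD, a repressive chromatin remodelling complex. The labels put the kidneys at embryonic day 17, or slightly later in the extraction notes. They give neither strain nor the number of mutant alleles. Nor do they say that the 3 kidneys of a genotype had different mothers or embryos, and p-values here rest on the spread between these samples, which may be technical. General markers of kidney epithelium, among them Pax2, Pax8 and Cdh16, were all measured, 8 of 8, with 20367 signal units or more in every library.

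The libraries did not fall apart by genotype alone. The authors had scaled the signal to nearly equal totals, and the spacing of the values gave an estimated depth, relative to wild type 337, of 3.99, 1.92 and 4.34 times in mutants 328, 336 and 342 and of 4.12 and 1.54 times in wild types 330 and 331. Mutants 328 and 342 and wild type 330 therefore form a class of higher depth, and mutant 336 and wild types 331 and 337 a class of lower depth. The higher values rest on a weak periodicity of 0.10 to 0.14, so the class is surer than the exact depth. Over all genes, wild type 330 lay nearer to the mutants than to the other wild types for 75.8%. Differences are therefore given over all libraries and, for the genes as a set and for some named genes, also within each class. The class values are mutants 328 and 342 minus wild type 330, and mutant 336 minus wild types 331 and 337.

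No gene of the 46 passed limma at an adjusted p under 0.05, the adjusted p running between 0.231 and 0.951, where 0.285% of all genes did, 0.199% higher and 0.0864% lower in mutants. None passed by the p in the authors' deposited table either, adjusted in the same way, but by that p no gene of the whole table passed. At an unadjusted p under 0.05 limma gave 2 genes higher and 7 lower in mutants, where 10.5% of all genes were higher and 8.51% lower at that threshold. The p in the authors' deposited table was under 0.05 for 2 of the 46, Ncl and Dkc1, and for 8.71% of all genes. As the genes were chosen with this comparison in view, their differences are a description. In 8 of 46 genes (17.4%) all 3 mutants lay below all 3 wild types, and in 3 (6.52%) all 3 lay above, where 8.42% and 11.1% of all genes did so. The other 35 overlapped between genotypes.

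The difference between mutants and wild types on the log2(signal + 1) scale ran between -0.95 and 0.58 over the 46 genes, with a median of -0.16, where the median of all genes was 0.02. The difference was below 0 in 27 genes and above 0 in 19. Within the higher class the median was -0.08, where all genes had -0.01, and 0 of the 46 genes reached 0.5 in size, where 4.92% of all genes did. Within the lower class the median was -0.22, where all genes had 0.04, and 19 of the 46 (41.3%) reached 0.5 in size, where 37.7% of all genes did. The wider spread in the lower class was thus shared by the whole table. In 23 of 46 genes (50%) the mutants were lower in both classes, where this held for 32% of all genes. In a whole kidney, fewer cells that use these genes and less of their RNA per cell cannot be told apart.

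**Figure D1:**
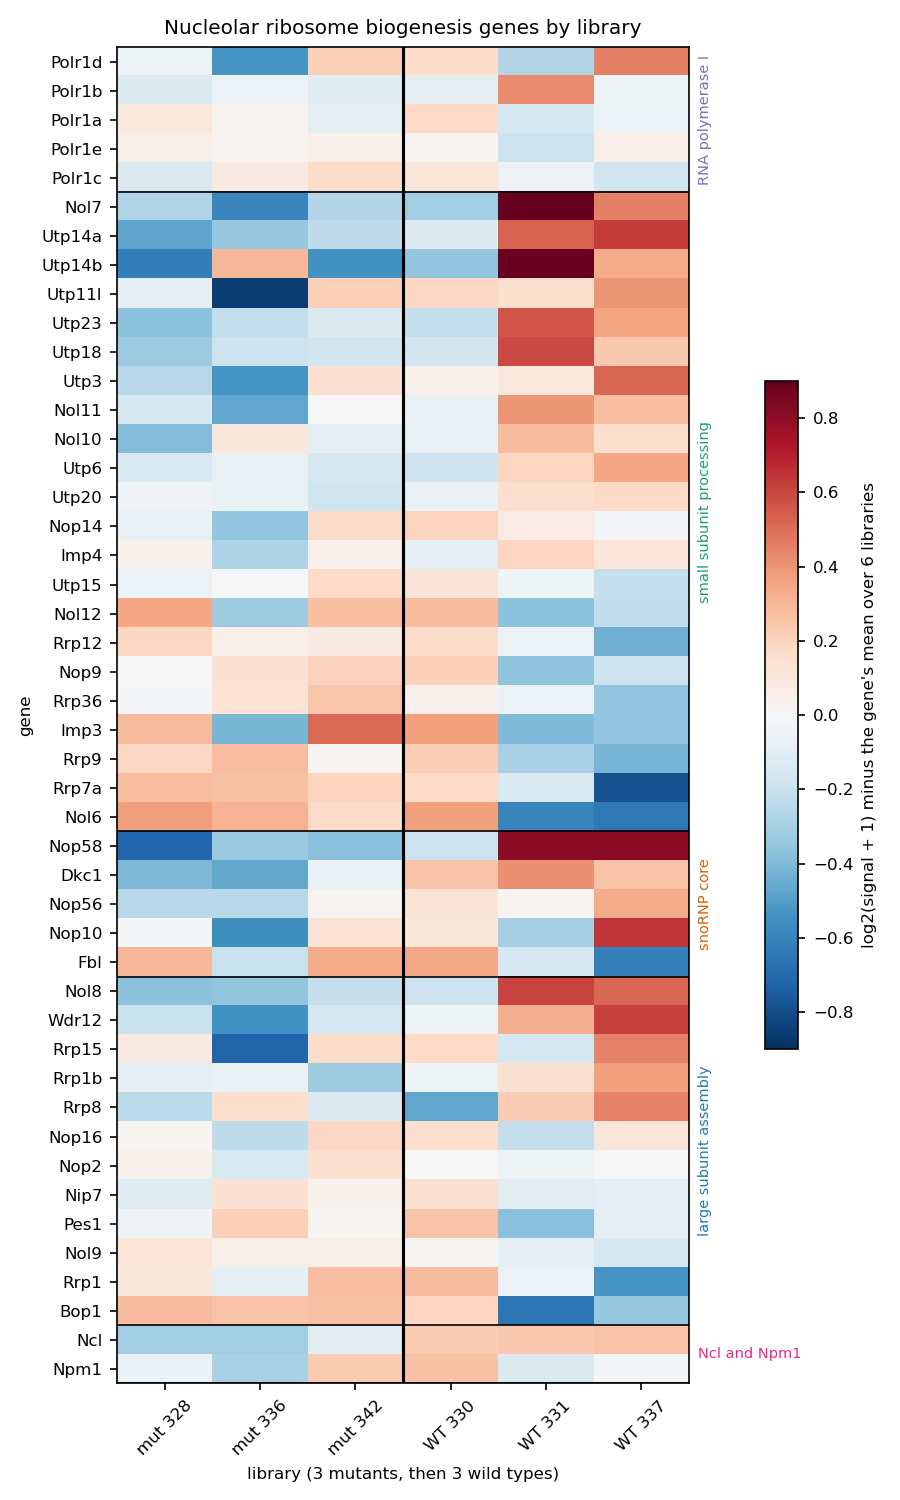
Heat map of the 46 genes in 3 mutants (left) and 3 wild types (right), as log2(signal + 1) minus the gene's own mean over the 6 libraries, grouped by role. Wild types 331 and 337 carry most of the strong colours, and wild type 330 was nearer to the mutants than to the other wild types for 38 of 46 genes.

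The counts depended on how wild type 330 was treated. Without it 13 of the 46 genes (28.3%) passed limma, 3 higher and 10 lower in mutants, as did 26.7% of all genes, and the median log2 difference of the 46 genes was -0.22. That median was nearer 0 without mutant 336 (-0.04) and without wild type 337 (-0.09). The 13 were Bop1, Nol6 and Rrp7a, with higher signal in mutants, and Dkc1, Ncl, Nol7, Nol8, Nol11, Nop58, Utp14a, Utp18, Utp23 and Wdr12, with lower. Leaving out wild type 330 leaves only wild types of the lower depth class. Genotype and differences between libraries therefore cannot be told apart in these 13 calls. With libraries weighted by their spread, limma also called 13 (28.3%), 3 higher and 10 lower, where it called 30.2% of all genes. That setting gave wild type 330 the lowest weight, 0.298, and mutant 328 the highest, 5.33. It is thus not separate from leaving out wild type 330. Summed signal over the 46 genes was 1836602, 1732291 and 2018585 in mutants 328, 336 and 342, against 2126253, 2079623 and 2126207 in wild types 330, 331 and 337. All 3 mutants thus lay below all 3 wild types in the sum. Without Ncl and Npm1, the 2 genes with the most signal, the sums were still apart, at 1353818 to 1543183 in mutants against 1567662 to 1600327 in wild types. Without Ncl alone, or without Nop58 alone, the sum of mutant 342 lay above that of wild type 331, so the groups overlapped. By role, the sums of the snoRNP core did not overlap, at 180236 to 224054 in mutants against 243370 to 326611 in wild types. This rested on Nop58, without which mutant 342 lay above wild type 331. The sums overlapped in the small subunit group, at 550104 to 628890 in mutants against 626862 to 659713 in wild types, and likewise in the large subunit and polymerase I groups. They did not overlap over the 25 genes with GC content below the median of all genes, at 975012 to 1166299 in mutants against 1271276 to 1440045 in wild types. Over the 21 genes at or above it they did, at 757279 to 852286 in mutants against 686162 to 854977 in wild types.

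Within the snoRNP core, 4 of 5 genes had lower signal in mutants in both depth classes. Nop58, a scaffold of the box C/D snoRNPs that methylate ribosomal RNA (chromosome 1, 59684971 to 59719044 of GRCm38), had 42425, 55446 and 53713 signal units in mutants 328, 336 and 342, against 61065, 121527 and 122503 in wild types 330, 331 and 337. The groups did not overlap, but wild type 330 stood at about the level of the mutants and far below the other wild types. The log2 difference was -0.95 (SE 0.26), the lowest of the 46 genes, with -0.36 in the higher class and -1.14 in the lower. Nop56, its partner in the same particle, had 48492, 48423 and 58638 units in the mutants, against 62296, 58420 and 72679 in the wild types. Here mutant 342 and wild type 331 overlapped narrowly, and the log2 difference was -0.31 (SE 0.17).

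Fibrillarin (Fbl), the methyltransferase of that particle, stood in the other direction. It had 23082, 16327 and 23642 units in mutants 328, 336 and 342, against 23708, 16849 and 12224 in wild types 330, 331 and 337. Its values followed the depth classes and overlapped between genotypes, with a log2 difference of 0.29 (SE 0.26). Dyskerin (Dkc1), the pseudouridine synthase of the box H/ACA snoRNPs and a part of telomerase (chromosome X, 75095854 to 75109777), had 29505, 28281 and 37258 units in the mutants, against 46453, 51805 and 46499 in the wild types. All 3 wild types, 330 included, lay together above the mutants. The log2 difference was -0.62 (SE 0.18), with -0.49 in the higher class and -0.80 in the lower. Nop10, another H/ACA protein, had 46087, 31759 and 50803 units in the mutants, against 49848, 37797 and 72706 in the wild types, and the groups overlapped.

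These genes differ in base composition, and base composition moved with the difference over all genes. Stretches of 150 bases from the middle of each coding sequence as annotated on GRCm38, are printed to show the contrast within the snoRNP core, with G and C in capitals. Dkc1 has a coding GC content of 45.2% and Fbl 57.5%.
Dkc1: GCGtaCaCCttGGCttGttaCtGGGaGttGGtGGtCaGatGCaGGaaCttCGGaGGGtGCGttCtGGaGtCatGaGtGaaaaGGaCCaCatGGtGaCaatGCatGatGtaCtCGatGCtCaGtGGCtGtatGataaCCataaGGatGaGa
Fbl: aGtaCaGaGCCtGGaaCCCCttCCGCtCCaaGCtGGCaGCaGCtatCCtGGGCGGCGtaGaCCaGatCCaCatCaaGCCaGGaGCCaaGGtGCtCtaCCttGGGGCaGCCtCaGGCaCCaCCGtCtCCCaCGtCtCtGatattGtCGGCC
The Dkc1 stretch is bases 689 to 838 of its 1527 coding bases, and the Fbl stretch is bases 416 to 565 of 981.

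Nucleolin, an abundant RNA-binding protein of the nucleolus, had nearly the same level in every wild type. Ncl (chromosome 1, 86344719 to 86359400, minus strand) had 249511, 249596 and 289399 units in mutants 328, 336 and 342, against 364497, 367834 and 370235 in wild types 330, 331 and 337. The means were 262835 ± 23005 in mutants and 367522 ± 2882 in wild types (SD, n = 3 each). The SD of the wild types was 0.784% of their mean, across both depth classes, and every mutant lay below them. The log2 difference was -0.49 (SE 0.15), with -0.44 in the higher class and -0.56 in the lower. Nucleophosmin (Npm1), a histone and ribosome chaperone, had 151197, 128877 and 186003 units in the mutants, against 189818, 144127 and 155645 in the wild types. Its groups overlapped, and its log2 difference was -0.08 (SE 0.19).

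**Figure D2:**
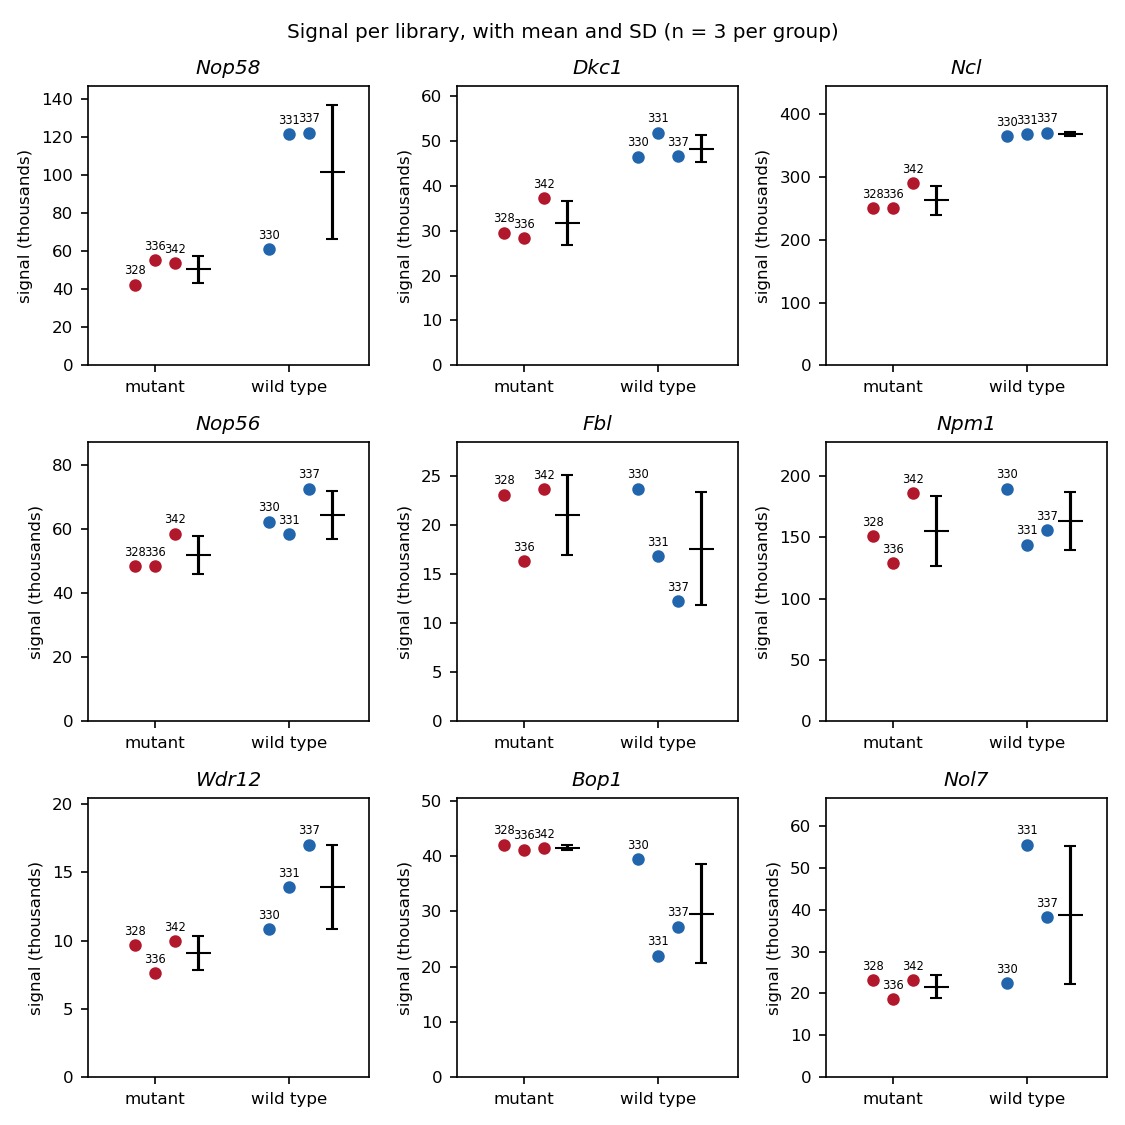
Signal per library (axes in units of 1000, starting at 0) for 9 genes, mutants left and wild types right in each panel, with mean and SD (n = 3). For Ncl and Dkc1 the 3 wild types lie together above the mutants, and for Nop58, Wdr12 and Nol7 wild type 330 lies near the mutants.

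Of the 22 small subunit genes, 13 had a log2 difference below 0 and 9 above, with a median of -0.18. In 2 of them (9.09%) all mutants lay below all wild types and in 1 (4.55%) all lay above, where 8.42% and 11.1% of all genes did so. Utp14a, a processome component (chromosome X, 48256862 to 48282453), had 18915, 20762 and 22512 units in mutants 328, 336 and 342, against 24283, 38081 and 40720 in wild types 330, 331 and 337. No values overlapped, but wild type 330 sat close to mutant 342. The log2 difference was -0.70 (SE 0.22), with -0.23 in the higher class and -0.92 in the lower. Utp14b, a copy of Utp14a that shares exon sequence on its strand with Acsl3, had -0.58 (SE 0.37), and how reads were split between these genes is uncertain.

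Utp18, a WD-repeat processome protein, had 14572, 16010 and 16266 units in mutants 328, 336 and 342, against 16298, 27573 and 21571 in wild types 330, 331 and 337. Wild type 330 cleared mutant 342 by a margin far smaller than the spread of the wild types. Nol7 had 23172, 18570 and 23225 units in the mutants, against 22465, 55487 and 38230 in the wild types. Its log2 difference was -0.75 (SE 0.29), yet it was 0.05 within the higher class and -1.31 within the lower. Mutants 328 and 342 and wild type 330 had nearly the same Nol7 signal, and the groups overlapped.

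Among small subunit genes with more signal in mutants, Nol6 and Rrp7a also differed mainly within the lower depth class. In both, mutant 336 had about the signal of the other mutants, and wild types 331 and 337 lay lower. Nol6, a U3 snoRNP-associated protein whose yeast counterpart is Utp22, had 52096, 49929 and 45338 units in mutants 328, 336 and 342, against 51964, 26602 and 25745 in wild types 330, 331 and 337. Wild type 330 lay among the mutants, with a log2 difference of 0.58 (SE 0.25) over all libraries, -0.10 in the higher class and 0.93 in the lower. Rrp7a, whose yeast counterpart binds Utp22, had 46263, 45973 and 43949 units in the mutants, against 43358, 34717 and 22252 in the wild types. All mutants lay above all wild types, with wild type 330 just below mutant 342, and the log2 difference was 0.49 (SE 0.23). Utp20, a large scaffold protein of the processome, had 45918, 44983 and 41553 units in the mutants, against 45023, 52184 and 53034 in the wild types, and overlapped.

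The other 15 small subunit genes all overlapped between genotypes. Lower in mutants on average were Utp11l (-0.48), Utp23 (-0.47), Utp3 (-0.43), Nol11 (-0.41), Utp6 (-0.24), Nol10 (-0.25), Nop14 (-0.17) and Imp4 (-0.14), as log2 differences. Higher on average were Utp15 (0.08), Nol12 (0.20), Rrp12 (0.21), Nop9 (0.23), Rrp36 (0.24), Imp3 (0.26) and Rrp9 (0.32). These values can hide unequal classes. Utp11l had -0.12 in the higher depth class and -1.12 in the lower, and Rrp9 had -0.12 and 0.63. Imp3 and Imp4 bind the U3 small nucleolar RNA in 1 complex, and Rrp9 is a protein of the U3 snoRNP itself. Imp3 had 45415, 28009 and 53157 units in mutants 328, 336 and 342, against 48185, 28249 and 29187 in wild types 330, 331 and 337. It was thus high in the 3 libraries of the higher depth class, whichever the genotype, and low in the other 3.

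The 12 large subunit genes split evenly, 6 below 0 and 6 above, with a median log2 difference of 0.00. The split ran through the PeBoW complex. Wdr12 had 9648, 7630 and 9962 units in mutants 328, 336 and 342, against 10840, 13914 and 17011 in wild types 330, 331 and 337, so all mutants were lower. Bop1 had 42046, 41133 and 41371 units in the mutants, against 39376, 21971 and 27234 in the wild types, so all mutants were higher. Pes1 had 41835, 49617 and 43297 units in the mutants, against 51287, 32994 and 40754 in the wild types, and overlapped. The log2 differences were -0.60 (SE 0.25) for Wdr12, 0.53 (SE 0.22) for Bop1 and 0.13 (SE 0.20) for Pes1. Within the higher class they were -0.14, 0.08 and -0.27, and within the lower class they were -1.01, 0.75 and 0.44.

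The 2 PeBoW genes that stand apart differ in composition too. Wdr12 has a coding GC content of 46.7% and Bop1 58.6%, and stretches of the same length and lettering are printed for both.
Wdr12: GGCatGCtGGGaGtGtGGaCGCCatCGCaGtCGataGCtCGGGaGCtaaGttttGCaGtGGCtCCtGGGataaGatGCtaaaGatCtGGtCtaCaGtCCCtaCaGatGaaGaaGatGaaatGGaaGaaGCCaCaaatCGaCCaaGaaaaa
Bop1: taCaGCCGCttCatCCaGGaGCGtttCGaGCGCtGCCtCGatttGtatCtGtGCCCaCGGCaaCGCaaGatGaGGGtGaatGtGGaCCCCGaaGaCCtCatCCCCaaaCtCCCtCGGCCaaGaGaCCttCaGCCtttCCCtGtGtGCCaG
The Wdr12 stretch is bases 560 to 709 of its 1269 coding bases, and the Bop1 stretch is bases 1024 to 1173 of 2196.

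Among the other large subunit genes, Nol8 had 11393, 11470 and 12707 units in mutants 328, 336 and 342, against 12903, 22384 and 21065 in wild types 330, 331 and 337. Rrp1b had 30761, 31276 and 26176 units in the mutants, against 31764, 35867 and 42274 in the wild types. In both genes every mutant lay below every wild type, with wild type 330 next to the mutants. Nol9, a polynucleotide kinase of ribosomal RNA processing, was the remaining gene whose groups did not overlap, at 44869 to 46992 units in mutants and 38917 to 44324 in wild types, with a log2 difference of 0.14 (SE 0.16). Rrp1, the paralog of Rrp1b, had 120905, 105962 and 136343 units in the mutants, against 137331, 108555 and 77681 in the wild types, and its log2 difference was 0.20 (SE 0.21). Its sign turned, to -0.02, when wild type 337 was left out. The other 5 large subunit genes overlapped, with log2 differences of -0.32 for Rrp15, -0.14 for the ribosomal RNA methyltransferase Rrp8, -0.02 for Nop16, 0.03 for Nop2, also a ribosomal RNA methyltransferase, and 0.03 for Nip7.

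Over all libraries, no RNA polymerase I subunit had a difference over 0.24 in size. The log2 differences were 0.02 for the largest subunit Polr1a, -0.20 for the second largest subunit Polr1b, 0.08 for Polr1c and -0.24 for Polr1d, both shared with RNA polymerase III, and 0.08 for Polr1e, with SEs of 0.17 to 0.24. Polr1d had 47742, 34074 and 57053 units in mutants 328, 336 and 342, against 55092, 41018 and 67512 in wild types 330, 331 and 337. Polr1a had 58788, 55749 and 51823 units in the mutants, against 62155, 49175 and 52835 in the wild types. All 5 subunits overlapped between genotypes. The sign for Polr1a turned without mutant 328 and without wild type 331, at -0.02 and -0.05.

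**Figure D3:**
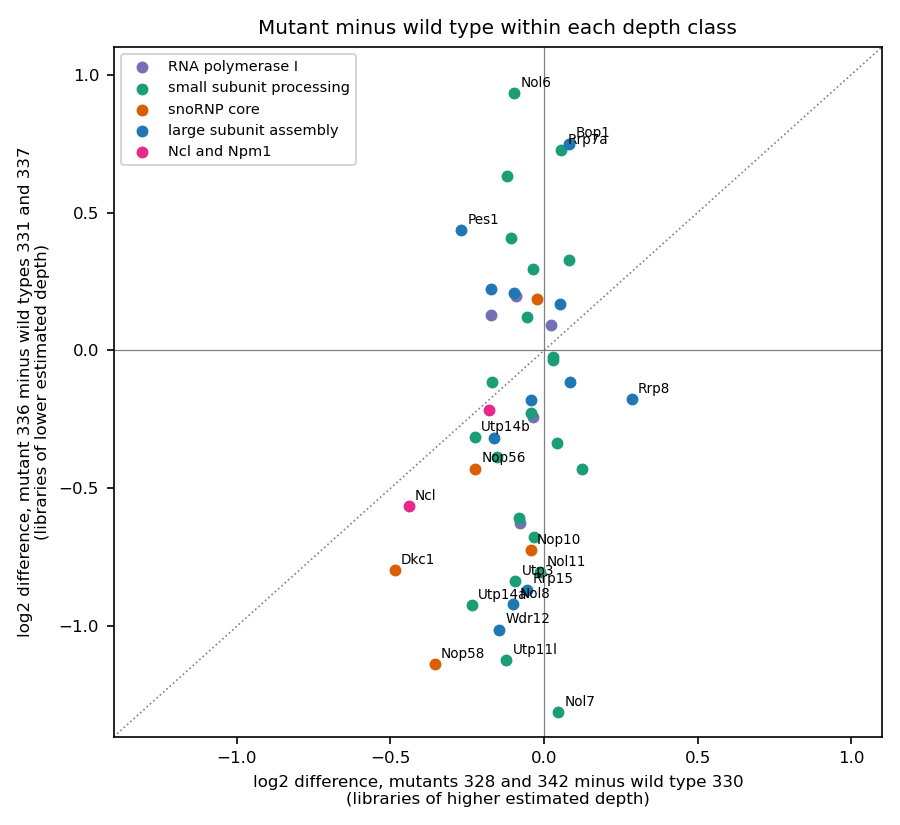
Log2 difference of each of the 46 genes within the higher depth class (mutants 328 and 342 minus wild type 330, x axis) and within the lower (mutant 336 minus wild types 331 and 337, y axis), coloured by role, with a dotted line of equality. Points spread further along the y axis, and Dkc1 and Ncl, at -0.49 and -0.44, lie furthest to the left.

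The differences followed base composition. Over the 46 genes, Pearson's r between the log2 difference and the GC content of the annotated transcript was 0.82, and over 11518 genes of the table matched to GENCODE M21 it was 0.63. These values are across genes of the same 6 libraries, which are not independent replicates. Of the 25 genes with GC content below 50.7%, the median of all matched genes, 22 had lower signal in mutants, with a median log2 difference of -0.41. Of the 21 at or above it, 16 had higher signal in mutants, with a median of 0.20. The same medians over all matched genes were -0.21 and 0.26.

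A like relation stood among the wild types alone. Between wild type 330 and the mean of wild types 331 and 337, r with transcript GC content was 0.71 over the 46 genes and 0.68 over all matched genes. In that contrast within wild types, Nop58 had a log2 difference of -0.999, Nol7 -1.04 and Nol6 0.99, whereas Ncl had -0.02 and Dkc1 -0.08. For all genes of below-median GC content, the median log2 deviation from a gene's mean was 0.21 and 0.19 in wild types 331 and 337. It was -0.14, -0.05 and -0.09 in mutants 328, 336 and 342 and -0.07 in wild type 330. All genes at or above the median had the opposite signs. After a smooth dependence on transcript length and GC content was removed, the median of the 46 genes was -0.11, where all genes had -0.02. Nop58 then had -0.61, Dkc1 -0.35, Ncl -0.17, Bop1 0.11 and Npm1 0.29. The part of base composition in each difference was not tested in any other way, apart from the removal of coding length and GC content, after which the median was -0.07. The 2 removals differed for Nol7, whose coding GC content is 52.4%, at -0.38 for the transcript and -0.74 for the coding sequence.

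**Figure D4:**
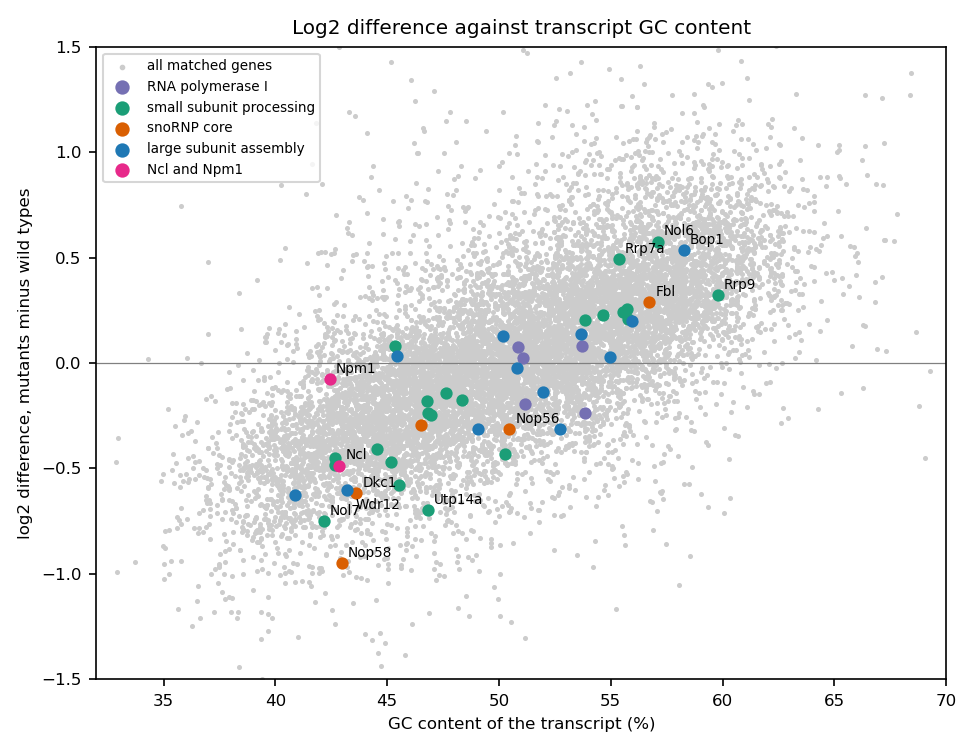
Log2 difference between mutants and wild types (y axis) against transcript GC content in percent (x axis) for all matched genes (grey) and the 46 genes (coloured by role). Nop58, Nol7 and Wdr12 lie at low GC content and below 0, and Bop1, Nol6 and Rrp7a at high GC content and above 0, and 61 grey points lie outside the axes.

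Annotated small nucleolar RNA genes stand inside 4 of the 46 genes (8.70%) on the same strand, and inside 1.81% of matched genes. The 4 are Nop56 with 5, Nop58 with 4, Ncl with 3 and Dkc1 with 1. All 4 had lower signal in mutants within both depth classes, as did 50% of the 46 genes and 32% of all genes. The transcripts of all 4 also had GC content below the median of all genes. Below that median, 76% of 25 genes of the 46 and 51.9% of all genes were lower in both classes. Other genes of the table that hold such RNAs were not described, and a link to the difference was not tested. The small RNAs themselves were not analysed here. Exons of 11 of the 46 genes overlap a coding gene on the opposite strand, among them Bop1 with Mroh1, Dkc1 with Mpp1, Nol7 with Ranbp9, Nop56 with Idh3b, Rrp7a with Serhl and Wdr12 with Carf. Whether counting used strand is not given in the sources used here, so values of these genes may include reads of their neighbours.

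Levels per length are compared next, as mean signal over 6 libraries per kilobase of the annotated transcript. Npm1 was the highest of the 46 genes at 97537 units per kilobase, followed by Rrp1 at 57693. Utp14b was the lowest at 2190, and Wdr12 stood at 4035 against 14260 for its partner Bop1. The median of the 46 genes was 12228 units per kilobase, where all matched genes had 9394. The value of 38427 for Ncl uses an annotated transcript of 8202 bases, so its level per kilobase is uncertain. That of Nop58 is also uncertain, since the transcript used, with 1332 coding bases, may be shorter than the full gene product needs.

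Promoters of 250 bases before to 50 after the start, from RefSeq on GRCm38.p6, matched 38 of the 46 genes. Motifs were searched on both strands. The E-box CACGTG, bound by Myc and related factors, was found in 8 of 38 (21.1%), against 10.4% of 9091 promoters of table genes and 7.24% of 27025 promoters in all. The ETS core CGGAAG was found in 20 of 38 (52.6%), against 32.8% and 17.2%, and the TATA-box letters TATAAA in 5 of 38 (13.2%), against 6.58% and 14.2%. The NRF1 consensus palindrome was in 0 of 38, against 2.13% of promoters of table genes and 0.977% of all. Among genes whose groups did not overlap, the E-box was in Utp18, lower in all mutants, and in Rrp7a, higher in all mutants, and these 2 promoters are printed to show that the same letters stand before genes of either direction. Capitals mark the E-box and, on either strand, the ETS core.
Utp18, chr11:93885717-93886016, minus strand: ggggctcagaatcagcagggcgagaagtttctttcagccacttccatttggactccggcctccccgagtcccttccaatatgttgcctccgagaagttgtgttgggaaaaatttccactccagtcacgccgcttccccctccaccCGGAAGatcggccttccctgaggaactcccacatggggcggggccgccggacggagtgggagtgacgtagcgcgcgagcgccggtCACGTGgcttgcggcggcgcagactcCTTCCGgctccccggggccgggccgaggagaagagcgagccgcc
Rrp7a, chr15:83122752-83123051, minus strand: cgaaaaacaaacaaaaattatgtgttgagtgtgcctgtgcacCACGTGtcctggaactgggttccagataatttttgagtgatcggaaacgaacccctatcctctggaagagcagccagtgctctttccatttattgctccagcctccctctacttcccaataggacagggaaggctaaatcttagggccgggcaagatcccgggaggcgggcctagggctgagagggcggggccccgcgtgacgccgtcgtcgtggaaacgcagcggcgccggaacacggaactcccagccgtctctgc
A match is a description of letters and not evidence of binding.

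Other genes of the pathway were taken from a list of 129, of which 128 were measured. None passed limma at an adjusted p under 0.05. By the authors' deposited p after adjustment none passed either, as was so for every gene of the table. At an unadjusted limma p under 0.05 there were 3 higher (2.34%) and 17 lower (13.3%) in mutants. Of all genes, 10.5% were higher and 8.51% lower at that threshold. Without wild type 330, 31 of the 128 passed (24.2%), where 26.7% of all genes did. In 24 (18.8%) all mutants lay below all wild types and in 4 (3.13%) above, where 8.42% and 11.1% of all genes did. The median log2 difference was -0.13, with -0.10 in the higher class and -0.15 in the lower. By role the medians were -0.17 for 27 small subunit processome genes, -0.04 for 9 late small subunit genes, -0.16 for 49 large subunit genes, -0.11 for 10 snoRNP genes, -0.11 for 10 polymerase I factors, -0.20 for 13 exosome genes and 0.23 for 10 genes of the Myc network.

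The widest of these differences without overlap were Esf1 at -1.08, Krr1 at -0.68, Mphosph10, which binds Imp3 and Imp4, at -0.64, the nucleostemin gene Gnl3 at -0.63, the polymerase I factor Taf1d at -0.62, Rpf1 at -0.59, Gtpbp4 at -0.55 and Mxd1, a Myc antagonist, at 0.61. Myc itself had 0.05, Mycn -0.21 and the polymerase I factor Ubtf 0.04. Of genes that the rule missed for their older symbols, Cirh1a (now Utp4) had -0.21 (SE 0.17), Gltscr2 (now Nop53) 0.63 (SE 0.26) and 8430427H17Rik (now Nol4l) 0.09 (SE 0.17), all with overlapping groups.

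Marker lists of cell types and states are described by their summed signal and by their medians. Proliferation markers, 18 of 18 measured, had a summed signal of 1339743 to 1510439 in mutants against 1629741 to 1876922 in wild types, and a median log2 difference of -0.09. Of these 18, 11 had lower and 7 higher signal in mutants on average, and 0 passed limma at an adjusted p under 0.05. At an unadjusted p under 0.05 limma gave 4 (22.2%), all lower in mutants, where 8.51% of all genes were. In 3 (16.7%) all mutants lay below all wild types, where 8.42% of all genes did, and 15 overlapped. Without Mki67 and Top2a, left out after their values were seen, the sums overlapped, at 938991 to 1093401 in mutants against 1062650 to 1128864 in wild types. Nephron progenitor markers, 10 of 10, had 353571 to 406891 in mutants against 481369 to 516912 in wild types, with a median of -0.27. Of these 10, which include Sall1 itself, 8 were lower and 2 higher in mutants on average. Limma called 2 of them at an adjusted p under 0.05, Cited1 at -1.70 and Tmem100 at -2.04. Of all genes, 0.0864% were called lower. Loop of Henle markers, 6 of 6, had 287212 to 341913 in mutants against 439576 to 484718 in wild types, with -0.49. Of these 6, 4 were lower and 2 higher, and Slc12a1 alone had means of 151490 in mutants against 277856 in wild types. Limma called 1 of the 6 at that threshold, Kcnj1 at -1.24. Macrophage markers, 6 of 8, had 78836 to 83675 in mutants against 43933 to 53700 in wild types, with 0.67, and all 6 were higher in mutants on average. Handling-response genes, 3 of 7, had 104795 to 133301 in mutants against 70957 to 96796 in wild types, with 0.66. Of these 3, 2 were higher and 1 lower, and Jun alone had means of 90344 in mutants against 57879 in wild types. In these 5 lists the sums in mutants and wild types did not overlap.

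In the other lists the sums overlapped. Median log2 differences were 0.65 for 8 proximal tubule markers, 0.29 for 5 of 6 stroma markers, 0.27 for 4 of 7 erythroid markers, 0.21 for 4 podocyte markers, 0.15 for 8 kidney epithelium markers and 0.01 for 5 endothelium markers. No measured marker was at 0 in any library, the lowest value being 2805 units, in the macrophage list. The part of these lists in the differences of the ribosome biogenesis genes was not tested.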

How the data were processed

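RNA of 3 mutant and 3 wild type kidneys was analysed, grouped by the labels. The deposited signal is a whole number for each gene and library, brought by the authors to totals of 555147910 to 559251769. Their table adds, as deposited columns, the ratio between genotype means, log2 versions of means and ratio, and a p-value. The submitters' processing notes name mm10 as the build and bedtools as a tool. Which aligner, annotation, filter and scaling the authors used is not given in the sources used here.

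The test was limma 3.58.1 (R 4.3.3, trend on mean level), run on log2(signal + 1) of the deposited signal after it had been tested on simulated data. Its p-values were adjusted by Benjamini-Hochberg across all 11578 genes, and 0.05 was the threshold. Counts or normalized values had been foreseen, and the signal was treated as normalized. Signal has an unknown unit, so no reads were recovered and no counting interval is given. Relative depth came from the spacing of values below 60000, with an estimated step of 0.863 for mutant 328, 1.79 for mutant 336, 0.793 for mutant 342, 0.836 for wild type 330, 2.23 for wild type 331 and 3.42 for wild type 337. No filter was applied and none of the 46 genes was lost. Length and GC content came from GENCODE M21 (10951 genes matched by symbol, 567 by synonym), 1 principal transcript a gene. They were removed with natural splines of 4 degrees of freedom.

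The genes and lists were chosen with earlier results of these data known. Per role group, the text names the most abundant gene, those with the largest difference each way and up to 4 whose groups did not overlap, and of other pathway genes up to 8. Nop56, Nop10, Npm1, Pes1, Nol9, the remaining polymerase I subunits, Utp14b, Imp3, Myc, Mycn and Ubtf were added after their values were seen, to complete a complex or pathway step. The motifs were also chosen then. The remaining genes of the 46 are given by their log2 difference alone, with class values for Utp11l and Rrp9 added after they were seen.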

Additional observations from a re-analysis of the deposited data

How the results depend on the processing

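No paired analysis was possible because mutants and wild types share no library number. The number of the 46 genes past limma was 0 in all settings but array weights, where it was 13, and leaving out wild type 330; leaving out each library gave 0 to 13. For other pathway genes array weights gave 33, and leaving out each library 0 to 31. Over all genes the count was 33, with 3493 under array weights, 51 after removal of transcript length and GC content, 0 by the authors' deposited p, and 2 to 3095 leaving out each library. The median log2 difference of the 46 genes ran between -0.22 and -0.0355 over those omissions, nearest 0 without mutant 336. Unadjusted p under 0.05 held for 4 to 19 genes, against 9 with all libraries.

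Of 416 values of named genes under alternatives, 367 kept direction and side of the threshold, 38 passed it newly, 19 each under array weights and without wild type 330, and 11 turned sign. Polr1a had -0.0188 without mutant 328, -0.0493 without wild type 331, -0.0210 with depth class as covariate and -0.0460 after length and GC removal, and it ran between -0.0493 and 0.120 over the omissions. Polr1c had -0.0731 and Rrp1 -0.113 after that removal, and Rrp1 -0.0198 without wild type 337 and up to 0.391 without wild type 330. With coding length and GC content instead, an alternative chosen after seeing the data, Polr1c had -0.0599, Rrp1 -0.0428, Polr1d 0.0282 and Utp20 0.0534. The cause was not tested. Depth class, GC content and genotype are entangled with 3 libraries a group, and the smaller depth of mutant 336 and wild types 331 and 337 limits the precision of their values.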
